A study of Mus musculus with 26 samples.

Results

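The genes described here are the 37 genes of the mouse mitochondrial genome, chosen by their symbols, which start with mt-, out of 39179 gene entries in the count tables. They comprise 2 ribosomal RNAs (rRNAs), 13 messenger RNAs (mRNAs) and 22 transfer RNAs (tRNAs). The rule uses the symbol and no measured value. Counts came from stranded total RNA libraries of C57BL/6J mouse brain cortex. All mice ate a diet with either 60% (high-fat) or 6% (control) of its calories from fat for 6 or 15 weeks and then had a stroke or a sham operation. Stroke tissue was taken after 3 days and held the stroke core with 1 to 2 mm of the tissue around it. The 26 libraries formed 6 groups. At 6 weeks these were sham on the control diet (n = 3), sham on the high-fat diet (n = 3), stroke on the control diet (n = 4) and stroke on the high-fat diet (n = 6). At 15 weeks they were stroke on the control diet (n = 4) and stroke on the high-fat diet (n = 6). Sham tissue at 15 weeks was not analysed here. The 6-week stroke groups serve in the comparisons with sham, between diets and with 15 weeks, so these comparisons share libraries.

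The mitochondrial genome is a small circle whose strands, called heavy and light, are each transcribed into long precursors. Most genes lie on one strand, with tRNAs set between them, and enzymes cut the precursors at the tRNAs to release the rRNAs and mRNAs. The mRNAs encode core subunits of respiratory complexes I, III and IV and of the ATP synthase. All other subunits, and every protein that copies, transcribes, processes or translates the mitochondrial genome, come from nuclear genes. Neurons of the cortex depend on this machinery for most of their ATP, and it stops when blood flow is lost.

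Nuclear genomes also carry pieces of mitochondrial DNA, and fragments that fit both places equally well may not be assigned to either. The members' transcripts were therefore compared with all other mouse transcripts in GENCODE M21 (build GRCm38). For 7 members a nuclear gene was near-identical, at 99.71% to 100% over an aligned stretch of at least 100 bases. These copies, named Gm29216, Gm28661, Gm10925, Gm28437, Gm28438, Gm10222 and Gm28439, match mt-Co1, mt-Co2, mt-Atp6, mt-Co3, mt-Nd3, mt-Nd4l and mt-Nd4. They lie next to each other within 4.17 kb of starts on chromosome 1, with no other annotated gene between them, in the same order along their strand as the mitochondrial genes. The copies of mt-Co2, mt-Atp6, mt-Co3 and mt-Nd4l had 0 mismatches over 681, 678, 783 and 294 aligned bases. The copy of mt-Nd3, a complex I subunit, differed at 1 of 345 aligned bases. That substitution is T3C, with the mitochondrial base first, the position counted from 1 at the 5′ end of the gene, and the base of the copy last. The first 120 bases of both are shown, 5′ to 3′, because they show how little a sequenced fragment could tell them apart, with the differing base in capitals.
mt-Nd3: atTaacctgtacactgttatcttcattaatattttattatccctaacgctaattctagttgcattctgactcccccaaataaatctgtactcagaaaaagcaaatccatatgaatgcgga
Gm28438: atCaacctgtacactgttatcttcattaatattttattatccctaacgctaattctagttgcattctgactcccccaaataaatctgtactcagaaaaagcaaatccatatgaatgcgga
The near-identical stretch covered between 98.99% and 99.87% of mt-Co2, mt-Atp6, mt-Co3, mt-Nd3 and mt-Nd4l. It covered 63.57% of mt-Nd4 and 31.26% of mt-Co1. For mt-Nd6, the complex I subunit encoded on the light strand, the nearest match was Gm11408, with 33 mismatches in 519 bases. Its first 120 bases hold 4 of these, A24G, T48C, A76G and G116A, and are shown for contrast with the differing bases in capitals.
mt-Nd6: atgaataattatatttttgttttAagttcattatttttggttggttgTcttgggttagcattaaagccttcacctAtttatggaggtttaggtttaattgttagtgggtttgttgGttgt
Gm11408: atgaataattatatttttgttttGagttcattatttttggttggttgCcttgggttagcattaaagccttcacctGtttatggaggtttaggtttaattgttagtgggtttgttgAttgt
No near-identical transcript was found for mt-Nd1, mt-Nd2, mt-Nd5, mt-Nd6, mt-Cytb, mt-Atp8 or the rRNAs. More distant copies existed for several of them, such as Gm13339 for mt-Nd2 at 96.67% identity over 510 bases and Gm11410 for mt-Cytb at 92.91% over 1142 bases. Transfer RNA genes are shorter than the minimum of 100 aligned bases, so their copies were not searched.

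The counts of the members differed by orders of magnitude, and the lowest mRNAs were those with a near-identical copy over almost their whole length. The cytochrome c oxidase subunit mt-Co1 had between 190217 and 293678 counts per library. The subunits mt-Co2 and mt-Co3 of the same complex had between 1 and 15 and between 3 and 31 counts. The ATP synthase subunit mt-Atp6 had between 0 and 10 counts, the complex I subunit mt-Nd3 between 3 and 18, and its partner mt-Nd4l at most 1. These 5 mRNAs together held a median of 31.5 counts per library, with a range of 17 to 64. The remaining very low mRNA was mt-Atp8, another ATP synthase subunit, with at most 1 count in each library. It lies between mt-Co2 and mt-Atp6 and overlaps mt-Atp6 by 43 bases. Every mRNA outside this stretch was well covered. The complex I subunits mt-Nd1, mt-Nd2 and mt-Nd5 had between 26417 and 42329, between 6707 and 13780 and between 5921 and 12411 counts. For mt-Nd6 the range was 500 to 2204. The complex III subunit mt-Cytb had between 18219 and 28744 counts, and mt-Nd4, copied over part of its length, between 6256 and 10462. Low tRNA genes lay both inside and outside this stretch. All 5 between mt-Co1 and mt-Nd4 (mt-Ts1, mt-Td, mt-Tk, mt-Tg and mt-Tr) had at most 1 count in every library, and so did 7 of the other 17. In each of these sets 4 genes were at 0 in every library. Of the 7 copies, Gm10222 was counted at 0 to 4 per library, and the other 6 had no entry in the count tables. Fragments placed at more than one site made up 24.1% to 32.1% of all counts in a library, and whether they held the fragments missing from these genes was not tested. For mt-Atp8 no near-identical copy was found among annotated transcripts. DNA outside annotated transcripts was not searched, so whether it is copied there is not known. Whether the counts of mt-Co2, mt-Atp6, mt-Co3, mt-Nd3 and mt-Nd4l reflect their transcript levels was not tested.

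**Figure D1:**
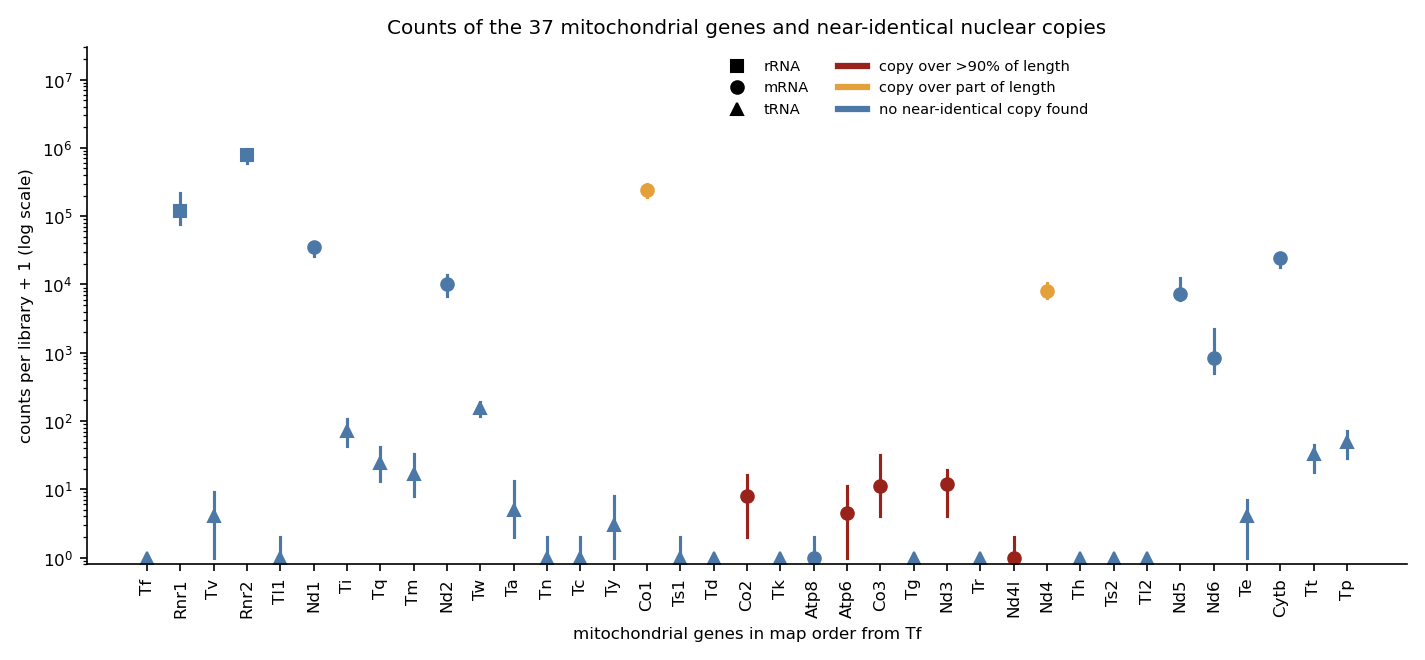
Counts per library plus 1 (log scale) of the 37 mitochondrial genes in map order. Symbols are medians over 26 libraries and lines run from the lowest to the highest library. Colour gives the extent of a near-identical nuclear copy, where tRNA genes were too short to be searched. The 5 mRNAs copied over almost their whole length sit at medians of 11 counts or fewer, between mt-Co1 and mt-Nd4.

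Per kb of gene length, the large-subunit rRNA mt-Rnr2 was the most abundant member, at a median of 34515 CPM per kb, where CPM is a count scaled to a fixed, equal total of gene counts in each library. It was followed by mt-Co1 at 11247, the small-subunit rRNA mt-Rnr1 at 8387, mt-Nd1 at 2549, mt-Cytb at 1443, mt-Nd2 at 670, mt-Nd4 at 392 and mt-Nd5 at 283 CPM per kb. The order of these neighbours held in all 26 libraries, except that mt-Co1 was above mt-Rnr1 in 20 of 26. These levels divide by the full gene length, although a near-identical copy covered 63.57% of mt-Nd4 and 31.26% of mt-Co1. Whether fragments from the copied parts were counted was not tested. The places of mt-Nd4 and mt-Co1 in this order therefore hold for the counts only and may not rank their transcripts. On the light-strand side, mt-Nd6 stood at a median of 108 CPM per kb, below mt-Nd5 and mostly below mt-Tw, which was higher in 20 of 26 libraries. Genes mt-Nd5 and mt-Nd6 lie on opposite strands and overlap by 14 bases. The counting's use of strand is not given in the sources used here, so fragments of either strand over mt-Nd6 cannot be told apart.

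Of the tRNAs, 6 passed the filter on low counts, and 8 of 22 had 0 counts in every library. The 6 are printed 5′ to 3′, because they were the only tRNA genes with enough counts to test, with the anticodon in capitals. A search for these 3 letters after a T or C and before a purine, near the middle of the gene, found each at a single place. They carry tryptophan (mt-Tw), isoleucine (mt-Ti), proline (mt-Tp), threonine (mt-Tt), glutamine (mt-Tq) and methionine (mt-Tm).
mt-Tw: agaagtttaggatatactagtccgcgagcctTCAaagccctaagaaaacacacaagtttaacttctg
mt-Ti: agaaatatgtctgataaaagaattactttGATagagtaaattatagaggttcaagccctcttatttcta
mt-Tp: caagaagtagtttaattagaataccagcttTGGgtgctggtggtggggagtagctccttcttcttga
mt-Tt: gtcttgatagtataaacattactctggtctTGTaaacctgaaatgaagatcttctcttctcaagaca
mt-Tq: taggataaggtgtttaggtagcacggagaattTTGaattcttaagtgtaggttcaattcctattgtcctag
mt-Tm: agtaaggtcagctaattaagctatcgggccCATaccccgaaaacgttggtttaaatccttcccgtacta
Their medians per kb ran from 156 CPM for mt-Tw through 69.1 for mt-Ti, 50.5 for mt-Tp, 31.5 for mt-Tt and 23.7 for mt-Tq to 16.3 for mt-Tm. Of these, mt-Ti overlaps mt-Nd1 by 2 bases, mt-Tw overlaps mt-Nd2 by 2 bases, and mt-Ti and mt-Tq overlap by 3 bases on opposite strands. Mature tRNAs and longer precursors that span them cannot be told apart in these counts.

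Across the 26 libraries, each with between 11400882 and 16962682 gene counts, mitochondrial genes held a median of 8.57% of gene counts, with a range of 6.95% to 11.2%. The rRNAs made up between 68.1% and 78.9% of the mitochondrial counts. As a share of gene counts, the rRNAs ranged from 4.86% to 8.74% and the mRNAs only from 2.02% to 2.64%, so the spread of the total lay mainly in the rRNAs. The tRNAs held between 0.00203% and 0.00316%. How ribosomal RNA was removed from these libraries is not given in the sources used here, and removal that differed between libraries could move the rRNA share. For marker lists, mean log2 CPM stands for the mean of log2(CPM + 1) over the list. Excitatory neuron markers had a mean log2 CPM of 7.65 to 8.38 per library and oligodendrocyte markers 8.28 to 9.27. Markers of the striatum, which lies under the cortex, were present too: all 7 had counts, at a mean log2 CPM of 3.41 to 6.44 and a summed level of 109 to 882 CPM. Markers of the choroid plexus, a tissue beside the brain's ventricles, stood at a mean log2 CPM of 3.67 in high-fat 6-week stroke replicate 6 and 2.42 in high-fat sham replicate 2. They were at most 1.57 elsewhere. All 8 of these markers had counts, and their summed level was 929 and 258 CPM in these libraries and between 3.73 and 76.3 CPM in the others. Activated phagocyte markers, high after stroke, were lowest among stroke libraries in high-fat 15-week replicate 1, at a mean log2 CPM of 2.90, and control-diet 15-week replicate 3, at 3.59. Sham libraries stood at 2.19 to 2.48, so high-fat 15-week replicate 1 was closer to sham in these markers than to most stroke libraries. Nothing in the labels says that libraries came from separate animals, so p-values measure only the spread between these libraries. In bulk tissue, fewer cells of a type and less RNA per cell cannot be told apart.

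Stroke against sham at 6 weeks asks how the mitochondrial transcripts differ after stroke. In mice fed the control diet the mitochondrial share of gene counts was 7.66% ± 0.477 (SD, n = 3) in sham and 8.41% ± 0.205 (SD, n = 4) in stroke. The sham libraries stood at 7.46%, 8.21% and 7.32% and the stroke libraries at 8.21%, 8.46%, 8.28% and 8.67%. The stroke libraries were thus all at or above the highest sham library, with the lowest of them almost level with it. In high-fat animals the share was 8.52% ± 1.43 (SD, n = 3) in sham and 8.15% ± 1.02 (SD, n = 6) in stroke, and the groups overlapped. The mRNA share overlapped between stroke and sham on both diets, at 2.25% ± 0.102 and 2.35% ± 0.106 on the control diet and 2.21% ± 0.249 and 2.33% ± 0.118 on the high-fat diet.

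**Figure D2:**
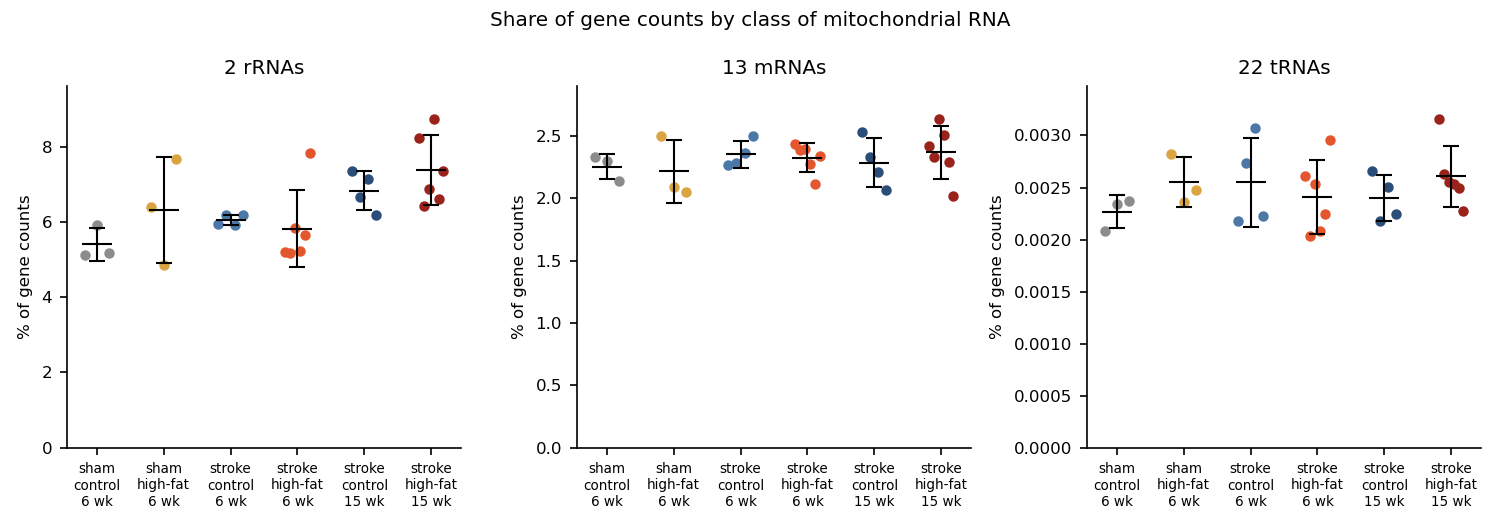
Share of gene counts (%) held by the 2 mitochondrial rRNAs, 13 mRNAs and 22 tRNAs in each library, by group. Points are libraries, and bars show the mean and SD. The mRNA share stays between 2.02% and 2.64% in every group, and the rRNA share is highest in the 15-week groups, at means of 6.83% and 7.37%.

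No single member was called different between stroke and sham by edgeR's quasi-likelihood test with Benjamini-Hochberg adjustment over 16325 genes at 0.05. On the control diet 0 of the 18 members that passed the filter were called, where 7.68% of all genes tested were (5.1% higher and 2.57% lower). An unadjusted p under 0.05 was found for 0 members and for 3791 of the 16325 genes. On the high-fat diet 0 of 18 were called, where 23.1% of all genes tested were (14.2% higher and 8.85% lower). There an unadjusted p under 0.05 was found for 1 member and for 5892 of the 16325 genes. Median log2 fold changes over the 18 members were 0.11 and -0.18, against 0.00 and -0.02 over all genes tested. For mt-Co1, the most abundant mRNA, levels scaled by TMM were 17508 ± 808 CPM (SD, n = 3) in control sham and 17775 ± 1014 CPM (SD, n = 4) in control stroke. They were 16916 ± 2275 CPM (n = 3) and 17010 ± 970 CPM (n = 6) on the high-fat diet. Its log2 fold changes were 0.02 ± 0.10 and 0.01 ± 0.09 (SE).

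Among rRNAs, the smallest p on the high-fat diet belonged to mt-Rnr1, which builds the small subunit of the mitochondrial ribosome. Its levels were 8599, 7080 and 14273 CPM in the sham libraries, and in stroke the lowest, median and highest were 6002, 6829 and 11003 CPM. The groups overlapped, and sham replicate 3 and stroke replicate 6 stood highest. The log2 fold change was -0.43 ± 0.22 (SE, edgeR adjusted p = 0.163). It was -0.58 (adjusted p = 0.0496) without stroke replicate 6, and -0.76 (adjusted p = 0.0271) without that library and sham replicate 2, the libraries high in choroid plexus markers. It was -0.08 (adjusted p = 0.849) without sham replicate 3, so that library decided its size. With limma voom and quality weights it was -0.77 (adjusted p = 0.00119). Of the rRNAs in control-diet mice, mt-Rnr2 had the smallest p, with a log2 fold change of 0.13 ± 0.15 (SE, edgeR adjusted p = 0.663). The smallest p of the mRNAs belonged to low-count genes with nuclear copies: mt-Co3 on the control diet at 0.49 ± 0.49 (adjusted p = 0.60) and mt-Co2 on the high-fat diet at 0.97 ± 0.46 (adjusted p = 0.131). For the tRNAs it belonged to mt-Tq at 0.56 ± 0.36 (adjusted p = 0.368) and mt-Tw at -0.20 ± 0.12 (adjusted p = 0.214), in the same order of diets. The difference between the diets in the effect of surgery called 0 of 18 members (background 0%). An unadjusted p under 0.05 was found for 0 members and for 914 of 16325 genes tested.

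Most of the listed nuclear genes of the mitochondrion were not called after stroke on either diet. On the control diet the background was 7.68% of all genes tested (5.1% higher and 2.57% lower). On the high-fat diet it was 23.1% (14.2% higher and 8.85% lower). In control-diet mice Tfam, which packages mitochondrial DNA and starts its transcription, was lower after stroke, with a log2 fold change of -0.22 ± 0.07 (SE, edgeR adjusted p = 0.0438), the only call among 19 transcription and replication genes. Of the same 19, Primpol, a primase that restarts stalled replication, was the only call on the high-fat diet, at 0.54 ± 0.16 (adjusted p = 0.0149). Mrm1, which methylates mt-Rnr2, was the only call among 18 modification genes on each diet, with log2 fold changes of -0.48 and -0.33 (adjusted p = 0.0167 and 0.0348). Mrps6, a protein of the small ribosomal subunit, was higher on both diets, at 0.75 ± 0.19 and 0.78 ± 0.18. Of 76 mitochondrial ribosomal protein genes, 1 was called higher and 3 lower on the control diet, and 2 higher and 1 lower on the high-fat diet. Respiratory subunits were rarely called. Cox8a of complex IV (-0.45 ± 0.09), Ndufb8 and Ndufv1 of complex I (-0.24 and -0.21) and Atp5a1 of the ATP synthase (-0.21) were lower on the control diet. In high-fat mice Atp5a1 was lower at -0.16, and Ndufa4l2, a relative of a complex IV subunit that the symbol pattern for complex I picked up, was higher at 1.04 ± 0.28. The coactivators Ppargc1a and Ppargc1b, which drive mitochondrial biogenesis, were lower on the high-fat diet, at -0.32 ± 0.10 and -0.48 ± 0.16 (adjusted p = 0.0284 and 0.0263). The chaperonin gene Hspe1 was higher there at 0.30 ± 0.08. Pnpt1, which degrades mitochondrial RNA, was the only call among 22 RNA processing genes on that diet, at 0.30 ± 0.09. The 2 biogenesis genes called were 2 of 8, near the background of 23.1% of all genes tested on that diet.

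Diet was compared in 3 pairs of groups, and edgeR called 0 of 18 members in each, where 0% of all genes tested were called. Unadjusted p was under 0.05 for 1 member in sham and for 0 in 6-week and 15-week stroke. Of all 16325 genes tested it was so for 782, 1141 and 1299, in the same order. The member in sham was mt-Rnr1, at 5769, 7407 and 6094 CPM on the control diet and 8599, 7080 and 14273 CPM on the high-fat diet. The groups overlapped, with a log2 fold change of 0.64 ± 0.26 (SE, edgeR adjusted p = 0.965). Without high-fat sham replicate 3 it was 0.29. In 15-week stroke the smallest p of the mRNAs belonged to mt-Nd5, at 0.30 ± 0.15 (adjusted p = 0.635), and of the tRNAs to mt-Tp at 0.36 ± 0.21 (adjusted p = 0.671). In 6-week stroke mt-Rnr2 was at -0.11 ± 0.13, mt-Tt at -0.39 ± 0.23 and mt-Co3 at -0.74 ± 0.41, with adjusted p of 0.779, 0.667 and 0.667. In sham mt-Nd2 was at 0.25 ± 0.14 and mt-Tw at 0.22 ± 0.13, both with an adjusted p of 0.965. Within the mitochondrial rRNAs, the ratio of mt-Rnr2 to mt-Rnr1 counts was lower on the high-fat diet in both 6-week comparisons. In sham it was 7.998, 7.25 and 7.69 with control food and 6.72, 6.06 and 4.69 with high-fat food. In 6-week stroke it was 7.22, 7.40, 7.75 and 7.87 on the control diet, and on the high-fat diet the 6 libraries ranged from 6.15 to 7.20 with a median of 6.82. The groups did not overlap in either, although the gap in stroke was only from 7.20 to 7.22. In 15-week stroke the ratio was 5.84 ± 0.428 (SD, n = 4) on the control diet and 5.05 ± 0.914 (SD, n = 6) on the high-fat diet, and the groups overlapped. These ratios were singled out after their values were seen and carry no test.

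The comparison of 15 with 6 weeks in stroke addresses the effect of time on each diet, which cannot be told apart from age or from any difference in how the 2 arms were handled. Among high-fat libraries 5 of 18 members were called higher by edgeR at 15 weeks and 0 lower, where 2.35% of all genes tested were called and 0.735% were called higher. The 5 were mt-Rnr1 and the mRNAs mt-Nd2, mt-Nd5, mt-Nd6 and mt-Cytb, all outside the stretch with near-identical nuclear copies. The mRNAs tested that were copied over almost their whole length had at most 31 counts per library and could hardly be called. Among control-diet libraries 0 of 18 were called, where 0.564% of all genes tested were (0.239% higher and 0.325% lower), and 4 had an unadjusted p under 0.05. Of all 16325 genes tested 2742 had such a p, so 4 of 18 is near the background. The 4 included mt-Nd2 and mt-Rnr1, which were higher, and mt-Tt, which was lower. The difference between the diets was called for 0 of 18 members (background 0%), and 0 had an unadjusted p under 0.05, where 792 of 16325 genes tested did. The diets were thus not shown to differ. Striatum markers were on average lower at 15 than at 6 weeks on the control diet. Their mean log2 CPM was 5.82 ± 0.527 at 6 weeks and 4.48 ± 0.593 at 15 weeks (SD, n = 4 each). The lowest 6-week library (5.202) was just above the highest 15-week library (5.194). Summed levels averaged 583 and 241 CPM and overlapped, with 372 CPM in the lowest 6-week library and 382 CPM in the highest 15-week library. High-fat stroke groups overlapped, at a mean log2 CPM of 5.04 ± 0.870 and 5.25 ± 1.05 (SD, n = 6 each). The part of that tissue in the members' values was not tested. Median log2 fold changes over the 18 members were 0.22 with high-fat and 0.015 with control food, against 0.01 and 0.00 over all genes tested.

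The complex I subunit mt-Nd5 had the smallest p on the high-fat diet. Its lowest, median and highest levels were 407, 475 and 536 CPM at 6 weeks and 557, 671 and 966 CPM at 15 weeks. All 6 of the 15-week libraries were above all 6 of the 6-week libraries, and the log2 fold change was 0.60 ± 0.13 (SE, edgeR adjusted p = 0.0187). In control-diet stroke mt-Nd5 was at 468, 471, 521 and 463 CPM at 6 weeks and 741, 541, 563 and 500 CPM at 15 weeks, where 15-week replicate 4 fell within the 6-week range. Its log2 fold change there was 0.29 ± 0.16 (SE, adjusted p = 0.375).

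The complex I subunit mt-Nd2 ran from 582 through a median of 670 to 725 CPM at 6 weeks and from 721 through 824 to 1073 CPM at 15 weeks on the high-fat diet. Only 15-week replicate 6 lay within the 6-week range, just under its top. Its log2 fold change was 0.42 ± 0.10 (SE, edgeR adjusted p = 0.0237). In control-diet stroke it was the mRNA with the smallest p, at 628, 619, 591 and 722 CPM and then 1003, 794, 719 and 690 CPM, with a log2 fold change of 0.32 ± 0.12 (SE, adjusted p = 0.187). The groups overlapped there, since 15-week replicates 3 and 4 were under the highest 6-week library.

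The complex III subunit mt-Cytb ran from 1448 through 1623 to 1673 CPM at 6 weeks and from 1691 through 1844 to 2238 CPM at 15 weeks on the high-fat diet, with no overlap. Its log2 fold change of 0.26 ± 0.07 (SE, edgeR adjusted p = 0.0491) was the smallest among the called members and lay just inside the threshold. In control-diet stroke it was 0.15 ± 0.09 (adjusted p = 0.392).

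The small-subunit rRNA mt-Rnr1 ran from 6002 through 6829 to 11003 CPM at 6 weeks and from 8649 through 12254 to 17850 CPM at 15 weeks on the high-fat diet. The overlap came from 6-week replicate 6, since the other 5 of that group were at most 7544 CPM. The log2 fold change was 0.77 ± 0.18 (SE, edgeR adjusted p = 0.0296). It was 0.58 (adjusted p = 0.061) without the 3 libraries highest in mt-Nd6, which include the highest mt-Rnr1 value of each 15-week group. On the control diet the groups did not overlap, at 7309, 7189, 6781 and 7069 CPM at 6 weeks and 10656, 8932, 11868 and 8742 CPM at 15 weeks. It had a log2 fold change of 0.50 ± 0.22 (SE, adjusted p = 0.261), so the lack of overlap did not go with a call.

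The light-strand mRNA mt-Nd6 had the largest change and one of the largest spreads. It ran from 29.8 through 48.9 to 58.7 CPM at 6 weeks and from 51.1 through 86.6 to 181 CPM at 15 weeks on the high-fat diet, and the groups overlapped. It had a log2 fold change of 1.23 ± 0.31 (SE, edgeR adjusted p = 0.0368). Replicates 1 and 6 of that 15-week group stood at 181 and 165 CPM, and replicate 3 of the control-diet 15-week group at 170 CPM, above all other libraries, which were at most 96.5 CPM. Without these 3 libraries the log2 fold change was 0.72 (adjusted p = 0.0514). Replicate 1 and the control-diet replicate 3 were also the stroke libraries lowest in activated phagocyte markers. Without that pair it was 1.03 (adjusted p = 0.0204). In control-diet stroke mt-Nd6 was also higher on average at 15 weeks, at 56.8 ± 15.7 CPM at 6 weeks and 95.8 ± 51.5 CPM at 15 weeks (SD, n = 4 each). The groups overlapped there, and it was not called. The biological coefficient of variation of mt-Nd6, 0.356, was larger than that of 94.55% of genes tested, whereas those of mt-Cytb, mt-Co1 and mt-Nd1 were 0.0901, 0.0926 and 0.0955, below the median of 0.111 over all genes tested.

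**Figure D3:**
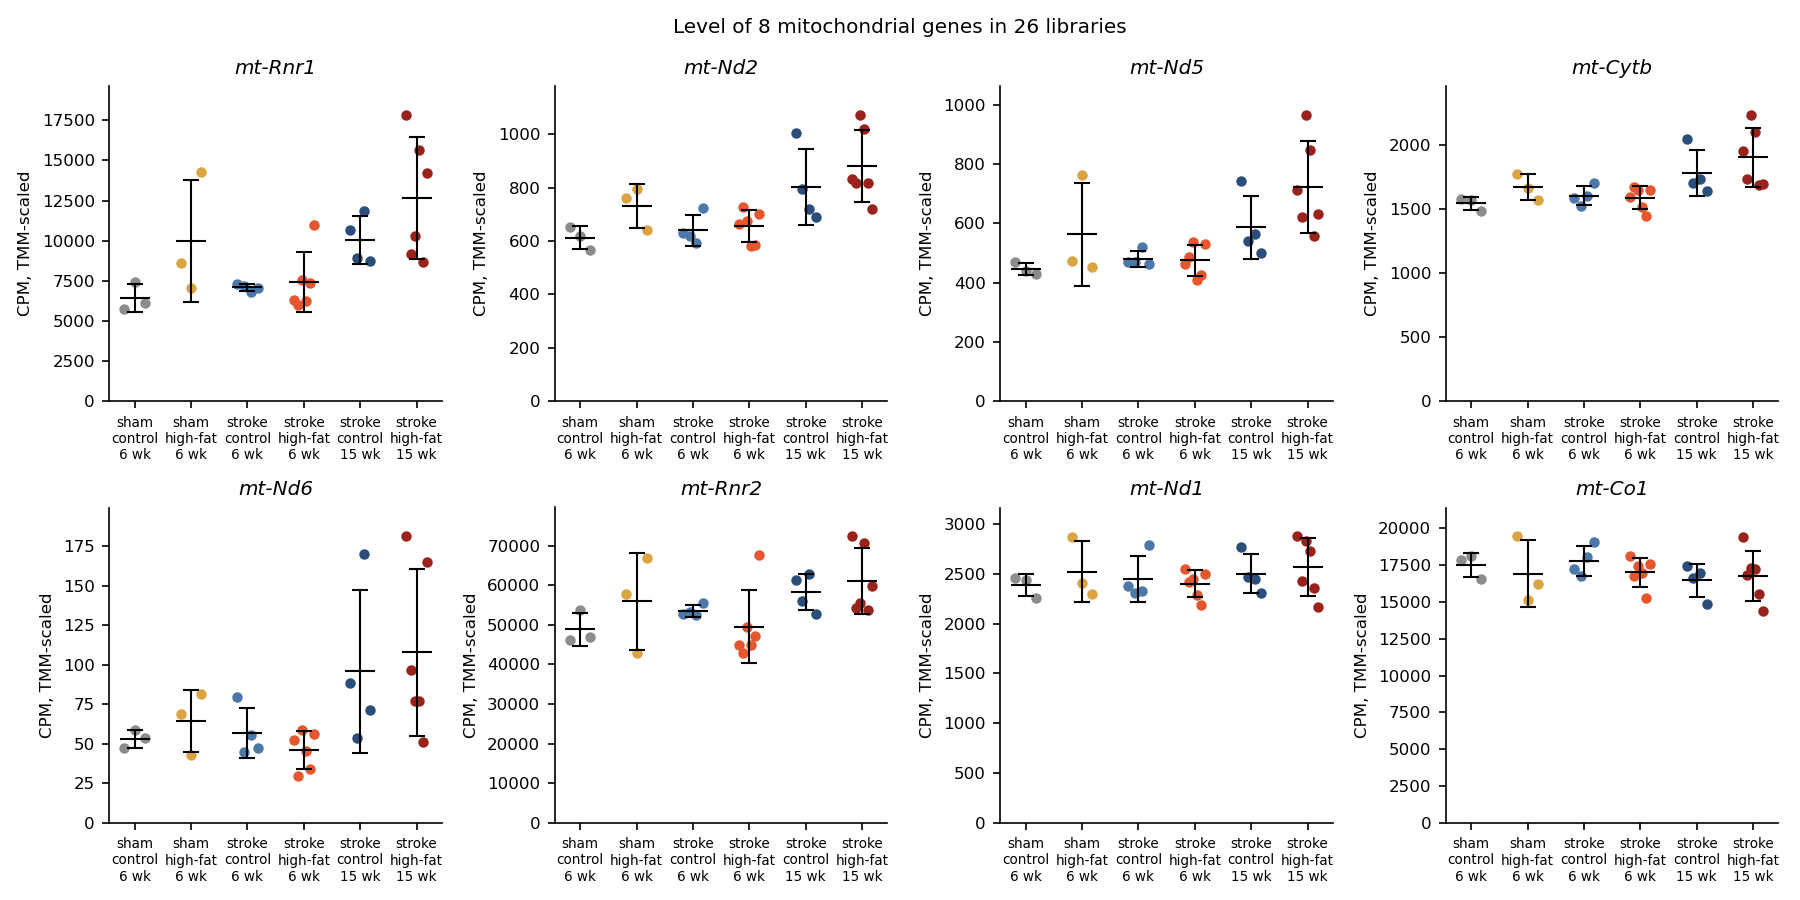
Level (CPM scaled by TMM) of the 5 members called higher at 15 weeks on the high-fat diet (mt-Rnr1, mt-Nd2, mt-Nd5, mt-Cytb and mt-Nd6) and of 3 that were not called (mt-Rnr2, mt-Nd1 and mt-Co1) in each library, by group. Points are libraries, and bars show the mean and SD. All 6 high-fat 15-week libraries lie above all 6 high-fat 6-week libraries for mt-Nd5 and mt-Cytb, and the groups overlap for mt-Co1.

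The other abundant members were not called at 15 weeks. The large-subunit rRNA mt-Rnr2 ran from 42944 through 46103 to 67721 CPM at 6 weeks and from 53631 through 57707 to 72405 CPM at 15 weeks on the high-fat diet. Its log2 fold change was 0.30 ± 0.11 (SE, edgeR adjusted p = 0.158), and 6-week replicate 6 alone stood within the 15-week range. The complex I subunit mt-Nd4 was at 0.28 ± 0.11 (adjusted p = 0.159) and mt-Nd1 at 0.10 ± 0.08 (adjusted p = 0.530). For mt-Co1, the most abundant mRNA, it was -0.02 ± 0.08 (adjusted p = 0.915) on the high-fat diet and -0.11 ± 0.09 (adjusted p = 0.570) on the control diet. The tRNAs mt-Ti, mt-Tw, mt-Tt and mt-Tm lay between 0.04 and 0.10 on the high-fat diet, and mt-Tp and mt-Tq were at 0.36 ± 0.18 and 0.48 ± 0.26, with adjusted p of 0.296 and 0.341. On the control diet the tRNA with the smallest p was mt-Tt, at -0.55 ± 0.26 (adjusted p = 0.283).

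**Figure D4:**
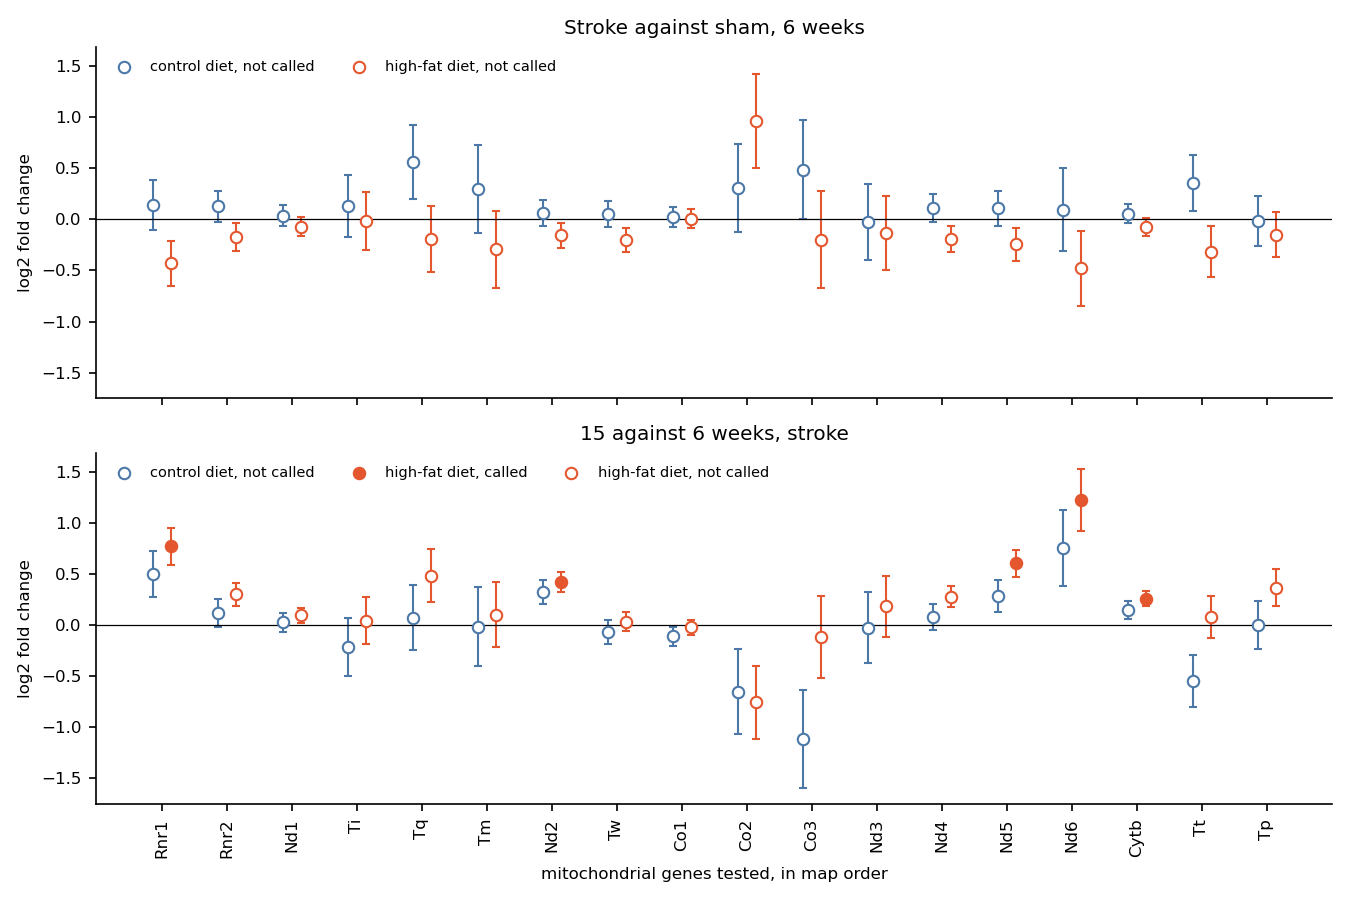
Log2 fold change (edgeR) of the 18 members tested, in map order, for stroke against sham (upper panel) and 15 against 6 weeks in stroke (lower panel), by diet. Bars are SE, and filled points passed an adjusted p of 0.05. The 5 filled points are mt-Rnr1, mt-Nd2, mt-Nd5, mt-Nd6 and mt-Cytb on the high-fat diet, and the values of mt-Co1 and mt-Nd1 lie near 0 in both panels.

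The balance within the mitochondrial mRNAs differed between 6 and 15 weeks, while their total overlapped between the weeks on both diets. The 13 mRNAs held 2.33% ± 0.118 of gene counts at 6 weeks and 2.37% ± 0.212 at 15 weeks on the high-fat diet (SD, n = 6 each), and 2.35% ± 0.106 and 2.28% ± 0.198 on the control diet (SD, n = 4 each). The ratio of mt-Co1 to mt-Nd5 counts was 36.1 ± 3.53 at 6 weeks and 23.9 ± 4.18 at 15 weeks on the high-fat diet. Its lowest value at 6 weeks was 32.5 and its highest at 15 weeks was 27.8. For control-diet mice it was 37.05 ± 2.87 at 6 weeks and 28.5 ± 3.37 at 15 weeks, with a lowest of 34.6 against a highest of 30.7. Neither diet had overlap between the weeks. Accordingly, mt-Co1 made up 74.9% ± 0.777 of mitochondrial mRNA counts at 6 weeks and 71.1% ± 1.85 at 15 weeks on the high-fat diet, and 75.5% ± 0.390 and 72.2% ± 1.36 on the control diet, again with no overlap. High-fat sham replicate 2, a 6-week library high in choroid plexus markers, had a ratio of 19.8, within the range of the 15-week groups, while the other 5 sham libraries were between 35.7 and 41.3. High-fat 6-week stroke replicate 6, which was higher still in these markers, had a ratio of 33.2, within the range of its group. The part of that tissue in the ratio was not tested. The ratio of mt-Rnr2 to mt-Rnr1 was 7.56 ± 0.301 at 6 weeks and 5.84 ± 0.428 at 15 weeks on the control diet, with no overlap. On the high-fat diet it was 6.77 ± 0.437 and 5.05 ± 0.914, and overlapped only between a lowest of 6.15 at 6 weeks and a highest of 6.20 at 15 weeks. The rRNA share of gene counts was 5.82% ± 1.02 at 6 weeks and 7.37% ± 0.927 at 15 weeks on the high-fat diet, and 6.05% ± 0.144 and 6.83% ± 0.526 on the control diet. Shares and ratios are descriptions and carry no test. On the high-fat diet mt-Nd5 and mt-Rnr1 were themselves called higher at 15 weeks, so ratios with them are not separate results there. On the control diet neither was called, and the ratios restate their uncalled changes, so they are not separate results there either. The ratios of mt-Co1 to mt-Nd5 and of mt-Rnr2 to mt-Rnr1 were not among the measures planned, so their lack of overlap carries little weight.

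**Figure D5:**
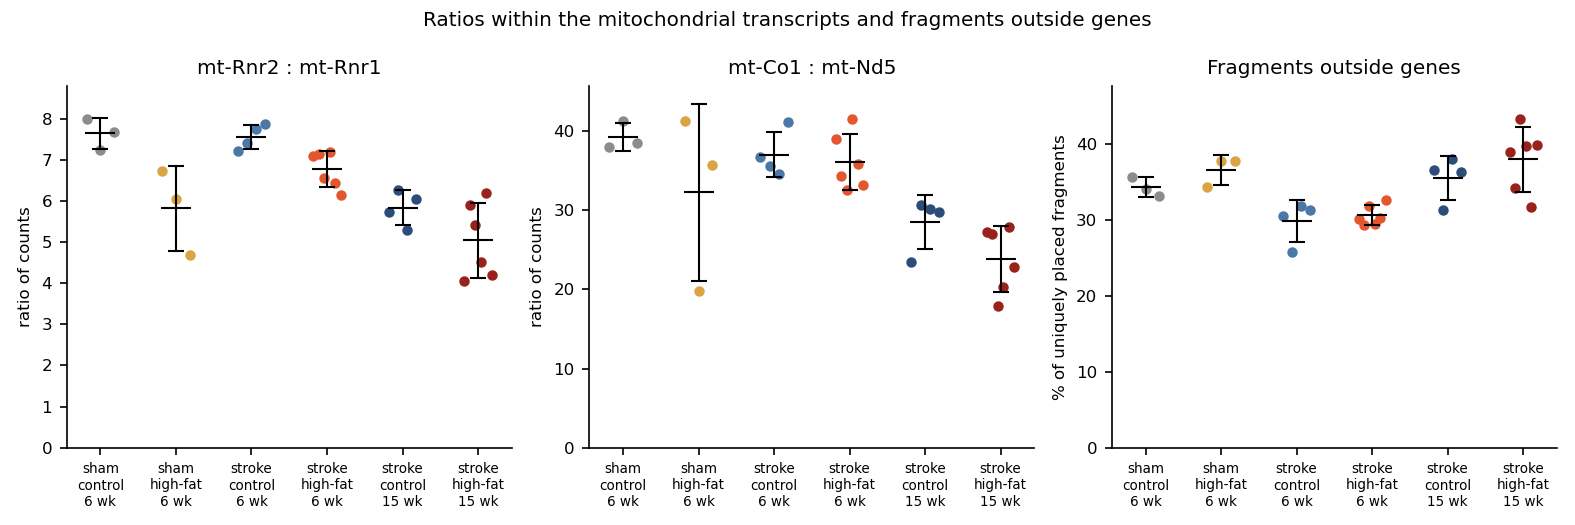
Ratio of counts of mt-Rnr2 to mt-Rnr1 and of mt-Co1 to mt-Nd5, and fragments outside genes as a percentage of uniquely placed fragments, in each library by group. Points are libraries, and bars show the mean and SD. The ratio of mt-Co1 to mt-Nd5 is at least 32.5 in 6-week stroke and at most 30.7 in 15-week stroke, and sham replicate 2 on the high-fat diet lies at 19.8.

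A property of the libraries moved with the weeks. Fragments placed outside genes made up 30.6% ± 1.30 of uniquely placed fragments in high-fat 6-week stroke and 38.0% ± 4.24 at 15 weeks (SD, n = 6 each). For control-diet mice the values were 29.9% ± 2.74 and 35.6% ± 2.92 (SD, n = 4 each). The sham groups of the 6-week arm, at 34.4% ± 1.32 and 36.6% ± 1.99, were near the 15-week groups. With this share as a covariate, 0 of 18 members were called in high-fat stroke and 0 of all genes tested, and the log2 fold changes were 0.21 for mt-Nd5, 0.28 for mt-Nd2, 0.34 for mt-Rnr1, 0.51 for mt-Nd6 and 0.09 for mt-Cytb. What part this property had in the calls was not tested beyond that fit. Over 40 settings, which include this covariate and the omission of each of the 26 libraries, each of the 5 fold changes was above 0. The adjusted p was at or under 0.05 in 36 for mt-Nd5, 33 for mt-Nd2, 30 for mt-Rnr1, 29 for mt-Nd6 and 19 for mt-Cytb. Many of these omissions removed sham or control-diet libraries, which enter this comparison only through the shared spread and scaling. These counts therefore make the calls look steadier than omissions within the 2 groups compared, where as few as 1 member stayed called.

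Some nuclear genes whose products share complexes with the mitochondrial subunits were called lower at 15 weeks. At 15 weeks on high-fat food 9 of 37 complex I genes were called lower, among them Ndufs7 (log2 fold change -0.40 ± 0.07), Ndufa2 (-0.32 ± 0.06) and Ndufa11 (-0.27 ± 0.05), which encode subunits of the enzyme to which mt-Nd2 and mt-Nd5 belong. Of complex III, 4 of 9 were called lower, including Uqcr11 (-0.29 ± 0.05), Uqcr10 (-0.24 ± 0.05) and the cytochrome c1 gene Cyc1 (-0.22 ± 0.05). The calls were 2 of 16 for complex IV (Cox8a at -0.26 and Cox7a2 at -0.22) and 5 of 17 for the ATP synthase, including Atp5e (-0.37), Atp5g1 (-0.26) and Atp5o (-0.19). For complex II, which holds no mitochondrially encoded subunit, 0 of 4 were called. The background of genes called lower was 1.62% of all genes tested. Of 76 mitochondrial ribosomal protein genes 7 were lower, such as Mrps11 (-0.30) and Mrps7 (-0.21) of the small subunit, whose rRNA mt-Rnr1 was higher. None of these lists held a gene called higher. In control-diet stroke 3 of 37, 1 of 9, 1 of 16, 3 of 17 and 4 of 76 genes of the same lists were lower, among them Ndufs4 (-0.36), Uqcr10 (-0.26), Cox7a2 (-0.36), Atp5j2 (-0.32) and Mrps24 (-0.43), where 0.325% of all genes tested were. The lists' median log2 fold changes on the high-fat diet were -0.145 for complex I, -0.19 for complex III, -0.13 for complex IV, -0.12 for the ATP synthase and -0.12 for the ribosomal proteins. For the control diet they were -0.18, -0.21, -0.18, -0.21 and -0.15. With the share outside genes as a covariate 0 genes were called on the high-fat diet, so these calls were lost with it too.

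Lists of genes that copy, transcribe, process and translate the mitochondrial genome were too short to read a lack of calls from, since only 2.35% of all genes tested were called at 15 weeks with high-fat food and 0.564% with control food. On each diet 0 of 19 transcription and replication genes, 0 of 22 RNA processing genes, 0 of 18 RNA modification genes, 0 of 11 translation factors and 0 of 8 biogenesis regulators were called. Log2 fold changes of the transcription and replication genes lay between -0.23 and 0.36 on the high-fat diet, and those of the RNA processing genes between -0.17 and 0.07. Of 14 genes used here for mitochondrial mass and import, only Slc25a4, the ATP carrier of the inner membrane, was called, at -0.18 ± 0.05 (edgeR adjusted p = 0.0463) on the high-fat diet.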

How the data were processed

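Total RNA from cortex was sequenced as stranded paired-end libraries, per the labels' protocols. The submitters' processing notes name the build mm9 and the tools HTSeq, featureCounts, STAR and Trim Galore, with no role, order or version. For each library the authors deposited a table of raw counts of Ensembl genes, with no normalization that the values show. Of the counts in a file, 45.69% to 58.16% stood in 5 summary entries (outside genes, ambiguous, not uniquely placed and others), which entered neither library sizes nor tests. Of 39179 identifiers, 37607 matched a GENCODE M21 name. That annotation is on GRCm38, so it was used for names, order, lengths and sequences and no coordinates are printed.

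Genes passing filterByExpr (minimum count 10) in edgeR 4.0.16 were scaled by TMM and fitted by its robust quasi-likelihood method over all 26 libraries with 1 mean per group (R 4.3.3). Every test was two-sided, with Benjamini-Hochberg adjustment over 16325 genes at 0.05, and 18 of 37 members passed the filter (2 rRNAs, 10 mRNAs and 6 tRNAs). Members that passed only through a high group would be favoured by such a filter. Each SE was obtained as the size of the log2 fold change over the root of its F statistic. Shares are counts of the members over all gene counts, and levels per kb divide CPM by gene length. Marker levels average log2(CPM + 1) over a list, with CPM not scaled by TMM. Copies were found with BLAST+ 2.17.0 with a minimum identity of 90% and a minimum alignment of 100 bases.

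Named genes were every member called, or the member with the smallest p of each class where none was, and up to 3 called genes per related list. The members, lists and rules were chosen with earlier results of these data known. Alternatives were RLE size factors, scaling without mitochondrial genes, DESeq2 1.42.0, limma 3.58.1 voom, other filters, a non-robust fit, covariates, only the groups compared, counts of copies added and leaving out each library. Leaving out the 3 libraries high in mt-Nd6, the pair high in choroid plexus markers or the pair low in injury genes was chosen after seeing the data. On simulated counts with 200 of 16325 genes changed, the fit recovered 80.6% of 2-fold and 77.6% of 1.5-fold changes for 15 against 6 weeks on the high-fat diet. For the control diet it recovered 70.1% and 38.8%.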

Additional observations from a re-analysis of the deposited data

Results flagged for a closer look

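In groups of 4 to 10 libraries, 9 of 96 groups of values had a library far from the others by Dixon's test, where chance flags about 1 in 20. High-fat 6-week stroke replicate 6 accounted for 4 of them. Its mitochondrial share of gene counts was 10.16% against 7.507% to 8.251% in the other 5 libraries, and its rRNA share was 7.818%. It held 11000 CPM of mt-Rnr1 against 6002 to 7544 CPM, and 67720 CPM of mt-Rnr2 against 42940 to 49520 CPM. This library also had the highest choroid plexus marker level, at a mean log2 CPM of 3.67, and the part of that tissue in these values was not tested. High-fat sham replicate 2, the next highest in these markers, had the lowest mitochondrial share of the 26 libraries, at 6.95%.

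Control-diet 6-week stroke replicate 3 accounted for 4 more, of which 3 were low-count genes. It had 1.409 CPM of mt-Tm, 1.321 CPM of mt-Co2 against 0.5094 to 0.5627 CPM, 2.73 CPM of mt-Co3 against 0.633 to 0.9216 CPM, and 521.4 CPM of mt-Nd5 against 463.4 to 470.5 CPM. Replicate 4 of the same group had 2786 CPM of mt-Nd1 against 2307 to 2375 CPM.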

How the results depend on the processing

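No paired analysis was possible because the labels give no replicate numbers. In 7 of the 9 comparisons, 0 members were called under every setting run. For 15 against 6 weeks on the high-fat diet, the 5 calls became 2 with no filter, 1 with only the groups compared, 0 with the share outside genes as a covariate and 7 with voom. Leaving out each library gave 1 to 5, namely 1 without 6-week replicates 1, 4 or 5 or 15-week replicates 3 or 4, 2 without 6-week replicate 2, and 3 without 15-week replicates 2 or 6. For stroke against sham on the high-fat diet the 0 calls became 3 with voom and 2 without the pair high in choroid plexus markers. Leaving out each library gave 0 to 1 there, with 1 without stroke replicate 6. The cause was not tested. The log2 ratio of the mitochondrial share between control-diet stroke and sham was 0.134, 0.228 over all counts in the files and 0.061 for mRNAs only. On the high-fat diet it was -0.065, and -0.266 without the choroid plexus pair. For 15 against 6 weeks it was 0.118 on the control diet, 0.008 over all counts and -0.041 for mRNAs only. On the high-fat diet it was 0.258, and 0.025 for mRNAs only. For mt-Co3, the log2 fold change between control-diet stroke and sham ran from -0.114 (without stroke replicate 3) to 0.734 when each library was left out. Depth limits the tRNAs unequally: mt-Tm had 7 to 32 counts per library and mt-Tq 12 to 40, whereas mt-Tw had 116 to 189.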
